A study of Mus musculus with 8 samples.

Results

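The cells described here were CD4 T cells of mouse spleen in which at least 1 RNA molecule of Il1rl1, Klrg1 or Areg was counted. They came from 4 single-cell RNA libraries of total live splenocytes and numbered 925 of the 4451 CD4-gated cells of those libraries. The 8 libraries of the series held 83967 barcodes in all. A cell was gated as CD4 when it had more than 100 detected genes, at most 10% mitochondrial counts, at least 2 unique molecular identifiers (UMIs, each standing for 1 captured RNA molecule) of Cd3d, Cd3e and Cd3g together, at most 1 of the B cell genes Cd79a and Ms4a1 together, at least 1 of Cd4, and none of Cd8a or Cd8b1. CD4-gated cells with a UMI of any of the 3 genes are called marked CD4 cells below, and the remaining CD4-gated cells unmarked. Since UMIs of these 3 genes chose the cells, their levels and the number of marked cells are given as a description, without a test.

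Il1rl1 encodes ST2, the receptor for the alarmin interleukin-33. Klrg1 encodes an inhibitory lectin receptor that binds cadherins, and Areg encodes amphiregulin, a ligand of the epidermal growth factor receptor. All of them are known from effector regulatory T cells, which carry the lineage factor Foxp3 and often the high-affinity interleukin-2 receptor chain Il2ra and act in tissue repair as well as in suppression. ST2 and amphiregulin are also known from type 2 helper (Th2) cells, which depend on Gata3 and make the cytokines Il4, Il5 and Il13. Il4 is made in germinal centres as well, by follicular helper T cells, which carry Bcl6, Cxcr5 and Pdcd1 and help B cells. The question set for these cells was therefore which share of them had Foxp3 with Il2ra and which share had Il4, in each genotype.

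The study compared C57BL/6J mice of 2 months of age in which the translation factor subunit Eif3e can be deleted (Eif3e fl/fl Cγ1Cre Rosa26-YFP LSL, called cKO) with control mice that carry the same Cre and reporter alleles and no floxed Eif3e (Cγ1Cre Rosa26-YFP LSL). The Cre is driven from the Ig γ1 locus and acts in activated B cells, and it turns on YFP where it acts, so the T cells described here were not its designed target. Each library was made from spleens pooled from 2 to 3 mice, with 1 total and 1 YFP-sorted library per genotype in each of 2 batches, and each genotype thus had 2 total libraries, 1 per batch. Spread is therefore between pools, not between single mice.

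In GRCm38, the genes that define or divide the cells lie on chromosome 1 at 40429570 to 40465415 (Il1rl1), chromosome 6 at 122270596 to 122282882 (Klrg1), chromosome 5 at 91139599 to 91148432 (Areg), chromosome X at 7573644 to 7595245 (Foxp3), chromosome 2 at 11642807 to 11693193 (Il2ra) and chromosome 11 at 53602982 to 53618669 (Il4). These are gene bounds from the GENCODE annotation, and the 3′ libraries count molecules mostly from the ends of the last exons.

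The total libraries held between 71894780 and 88513929 UMIs. Marked cells had a median of 7362 and 5412 UMIs in control libraries 1 and 2 and of 6381.5 and 6828.5 in cKO libraries 1 and 2, close to the unmarked cells of the same libraries at 7252.5, 5926, 6432.5 and 6978. Pairs of libraries shared 62 to 98 cell barcodes, and none of them was a marked cell in both libraries of a pair. Shared barcodes marked in only 1 library of a pair were not counted. Both a cKO and a control library stood apart in their makeup. First, cKO library 1 held both CD4 cells with Xist and no Y-linked UMI, at 497 of 1100, and CD4 cells with Y-linked UMIs and no Xist, at 451. The other 3 libraries had at most 1 CD4 cell with Xist alone. A further 49 CD4 cells of cKO library 1, or 4.45%, had both kinds of UMI, which gives a count of cells or droplets that mixed both, and the shares and the comparison of genotypes within marked cells were also computed without the cells that had Xist, which was not done for the other comparisons. Second, control library 2 had more of the monocyte and macrophage list, whose 8 genes summed to 255 CPM in marked and 205 CPM in unmarked CD4 cells, against 10.6 to 35.1 and 17.4 to 34.2 CPM in the other libraries. Most of it was Lyz2, found in 3 of its 38 marked cells, with 2 of the 8 genes at 0 in these cells. The stricter gate below leaves out cells with Lyz2 or Csf1r, and the part of these transcripts in the results was not tested beyond that gate and the counts without that library. Eif3e itself was at 273 and 286 CPM (UMIs of a gene per 1e6 UMIs of the class) in the marked control cells and at 237 and 264 in the marked cKO cells, and in the B cells it was at 217, 261, 228 and 280 in the same order of libraries. Which exons the floxed allele removes was not looked up here, so these values are no check of the deletion.

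Marked cells made up a larger part of the CD4 cells in the cKO. In control library 1, 47 of 1011 CD4 cells were marked, or 4.65% (95% exact Clopper-Pearson interval 3.44 to 6.13). In control library 2, 38 of 861 were marked, or 4.41% (3.14 to 6.01). In cKO library 1 the count was 272 of 1100, or 24.7%, and in cKO library 2 it was 568 of 1479, or 38.4%. Both cKO libraries thus lay above both controls, with means of 31.6% ± 9.67 and 4.53% ± 0.166 (SD, n = 2), a ratio of 6.97. All intervals on shares of cells cover counting error only. Taken over all cells of a library, marked cells were 0.491% and 0.329% in the controls and 2.60% and 5.37% in the cKO.

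Each of the 3 genes was detected in a larger share of CD4 cells in the cKO. Il1rl1 was found in 0.396% and 0.348% of control CD4 cells and in 7.27% and 10.4% of cKO CD4 cells. Klrg1 was found in 1.19% and 1.39% against 6.27% and 8.65%. Areg, the most often detected, was found in 3.86% and 4.07% against 19.7% and 32.5%. The background that free RNA could give was read from B cells of the same libraries, which should lack these genes and had median depths of 5857, 4647, 5697 and 6281 UMIs. They were gated by at least 2 UMIs of Cd79a and Ms4a1 together and no UMI of Cd3d, Cd3e or Cd3g. Barcodes that took up Cd3 RNA were thereby left out, so the background may be too low, also for the other genes read from B cells below. In these B cells the shares ran from 0.0144% to 0.243% for Il1rl1, from 0.108% to 0.197% for Klrg1 and from 0.036% to 0.566% for Areg, and in every library each gene was in a larger share of CD4 cells than of B cells. For Il1rl1 in the controls, B cells had 0.036% and 0.0144%, but the CD4 shares there rested on 4 and 3 cells. Most marked cells were marked by Areg alone, with 34 of 47 and 26 of 38 cells in the controls and 153 of 272 and 346 of 568 in the cKO. Cells with all 3 genes numbered 3, 3, 18 and 38.

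**Figure D1:**
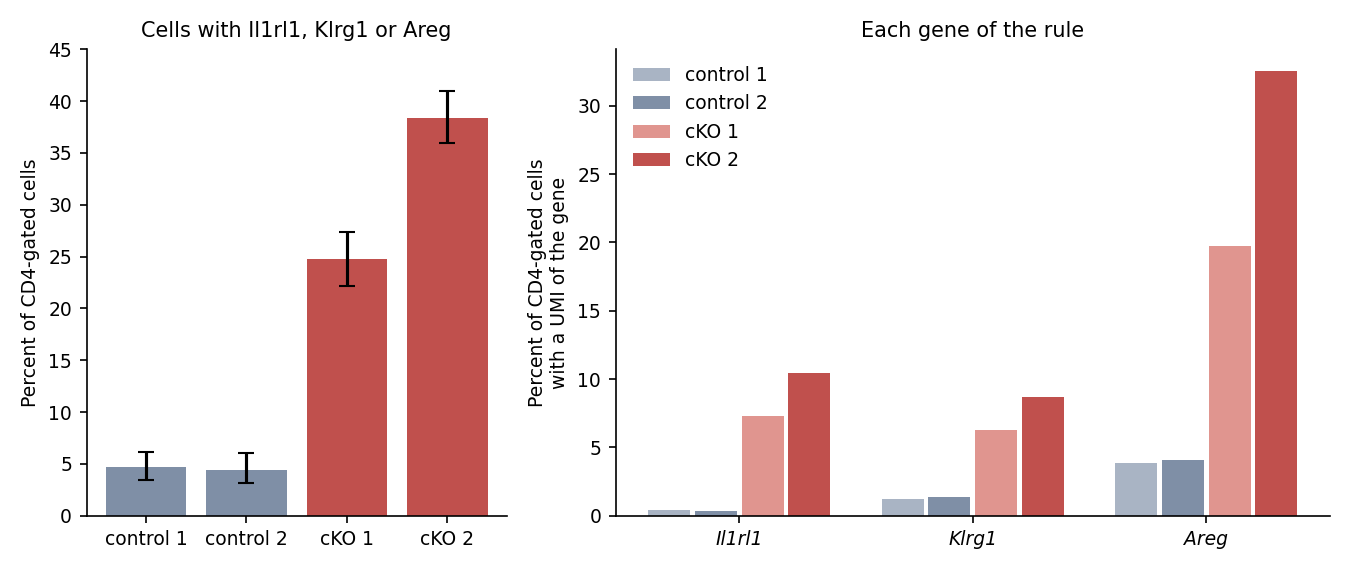
Left, percent of CD4-gated cells with at least 1 UMI of Il1rl1, Klrg1 or Areg in each total library, with 95% exact binomial intervals as error bars. Right, percent of CD4-gated cells with a UMI of each gene, a cell being counted under every gene it holds. The cKO bars on the left stand at 24.7% and 38.4%, the control bars at 4.65% and 4.41%.

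Every cell was thinned to 2000 UMIs, which leaves out shallower cells and sets all cells to 1 depth, and the gate was applied again to the thinned counts. Only 6, 6, 5 and 9 CD4 cells of the 2 control and 2 cKO libraries were shallower. After thinning, 423, 461, 575 and 862 cells met the CD4 gate. The marked cells were then 7, 14, 91 and 234, or 1.65%, 3.04%, 15.8% and 27.1% of them. The cKO libraries stayed above the controls at equal depth.

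Many marked cells lay at the edge of the gate. Cells with exactly 1 UMI of the 3 genes were 48.9% and 44.7% of marked cells in the controls and 26.5% and 25.5% in the cKO, and the median number of such UMIs was 2 in each control and 3 in each cKO library. Among cells just inside the gate, with 1 UMI, Foxp3 was detected in 26.1% and 41.2% of control cells and in 16.7% and 28.3% of cKO cells. With 2 or more UMIs these shares were 45.8%, 57.1%, 45% and 43.7%, and among cells just outside, with 0 UMIs, they were 6.12%, 5.71%, 7.49% and 9.22%. Il4 in cKO cells took 56.9% and 55.2% of cells with 1 UMI, 34% and 51.3% of those with 2 or more, and 18% and 31.8% of those with none.

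About 2 in 5 marked cells had a Foxp3 UMI in either genotype. Foxp3 was detected in 17 of 47 and 19 of 38 marked control cells, or 36.2% (22.7 to 51.5) and 50% (33.4 to 66.6). It was detected in 102 of 272 and 226 of 568 marked cKO cells, or 37.5% (31.7 to 43.5) and 39.8% (35.7 to 43.9). The groups overlapped, with means of 43.1% ± 9.78 in the controls and 38.6% ± 1.62 in the cKO (SD, n = 2; exact permutation test, two-sided, p = 1). With 2 libraries against 2 the smallest p this test can give is 0.333, so no share of cells could pass 0.05 here. In B cells Foxp3 was found in 0.121% to 0.324%, far below either group. Thinned to 2000 UMIs, Foxp3 was left in 3 of 7 and 6 of 14 control cells and in 14 of 91 and 51 of 234 cKO cells.

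Il2ra and the pair of Foxp3 with Il2ra took a smaller part of the marked cells in the cKO. Il2ra was detected in 31.9% and 23.7% of marked control cells and in 12.5% and 13.6% of marked cKO cells. Foxp3 and Il2ra were found together in 9 and 7 control cells, or 19.1% and 18.4%, and in 20 and 62 cKO cells, or 7.35% and 10.9%. The means of the pair were 18.8% ± 0.515 and 9.13% ± 2.52 (SD, n = 2), and the groups did not overlap, with the smallest p the exact permutation test can give (p = 0.333). B cells had Il2ra in 1.08% to 1.71% and the pair in none. At 2000 UMIs per cell the pair was seen in 0, 1, 1 and 10 cells, too few to set the groups apart. In unmarked CD4 cells the pair took 3.94% and 3.16% in the controls and 2.54% and 2.74% in the cKO.

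Il4 was found in marked cells of the cKO and in no marked control cell. The controls had 0 of 47 and 0 of 38 cells, which allows shares of up to 6.38% and 7.89% when 3 counts are taken as the limit of a count of 0, and up to 7.55% and 9.25% by the exact interval. The cKO libraries had 109 of 272 and 297 of 568 cells, or 40.1% (34.2 to 46.2) and 52.3% (48.1 to 56.5), with a mean of 46.2% ± 8.64 (SD, n = 2). The groups did not overlap (exact permutation test, p = 0.333, the smallest it can give). Unmarked CD4 cells had Il4 in 1.87% and 2.79% in the controls and in 18% and 31.8% in the cKO, and B cells in 0.108% and 0.101% against 0.408% and 1.15%. At 2000 UMIs per cell, 21 of 91 and 82 of 234 marked cKO cells kept Il4, or 23.1% and 35.0%, and 0 of 7 and 0 of 14 marked control cells did.

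Foxp3 and Il4 divided the marked cKO cells into 4 classes. In cKO libraries 1 and 2, 81 and 164 cells had Foxp3 without Il4, which is 29.8% and 28.9% of marked cells. Il4 without Foxp3 was found in 88 and 235 cells, or 32.4% and 41.4%, both genes in 21 and 62 cells, or 7.72% and 10.9%, and neither in 82 and 107 cells, or 30.1% and 18.8%. The order of the classes depended on the edge of the gate: among cells with at least 2 UMIs of the 3 genes, Foxp3 without Il4 was in 74 and 134 cells and Il4 without Foxp3 in 52 and 166, so it turned in cKO library 1. Il4 was less frequent among Foxp3-positive marked cells, at 20.6% and 27.4%, than among Foxp3-negative ones, at 51.8% and 68.7%, in each library. Cells with both genes had medians of 8067 and 7123 UMIs, against 6235 and 5925.5 with Foxp3 alone and 6963 and 7564 with Il4 alone. The class with Il4 alone was thus deeper than that with Foxp3 alone in both libraries, and deeper than the double class in cKO library 2. The part of depth in the detection shares of these classes was not tested, nor that of depth or of mixed droplets in the double class. At 2000 UMIs per cell the double class held 0 and 8 cells.

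**Figure D2:**
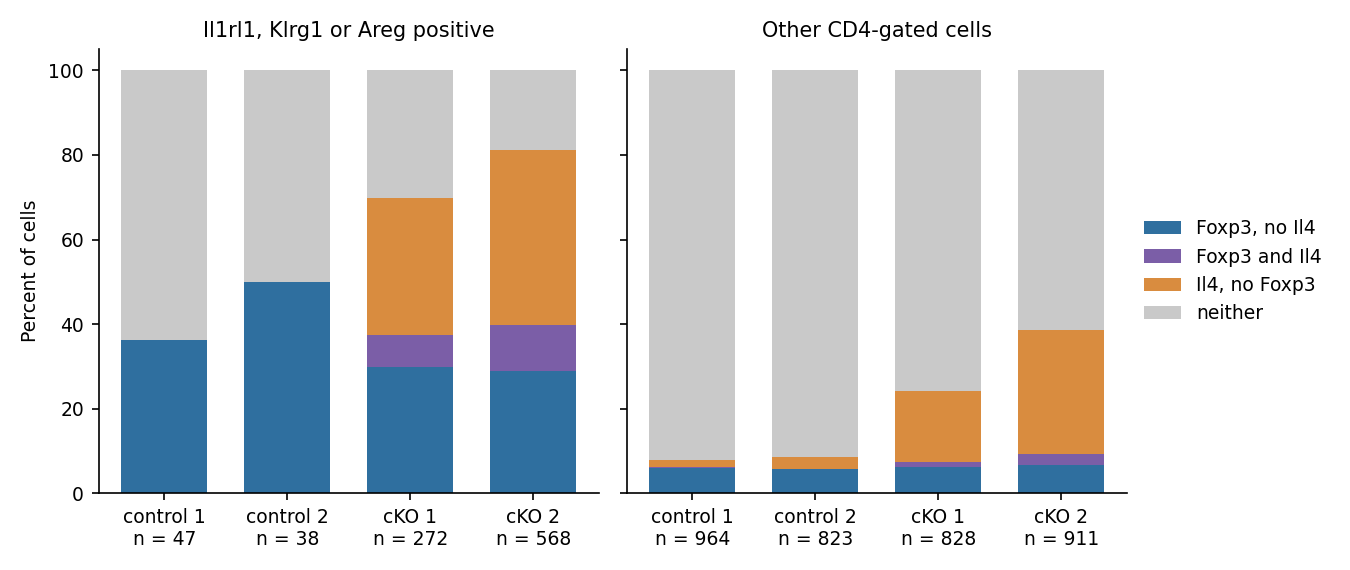
Percent of marked (left) and other, unmarked (right) CD4-gated cells with a UMI of Foxp3, of Il4, of both or of neither, for each total library, with the number of cells under each bar. Marked control cells fall into the Foxp3 and neither classes only, while Il4 without Foxp3 takes 32.4% and 41.4% of the marked cKO cells.

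Which of the 3 genes marked a cell went with its class. Marked cells with Il1rl1 or Klrg1 numbered 119 and 222 in the cKO and had Foxp3 in 57.1% and 68.5%, Foxp3 with Il2ra in 12.6% and 22.5%, and Il4 in 17.6% and 26.6%. Cells marked by Areg alone had Foxp3 in 22.2% and 21.4%, the pair in 3.27% and 3.47%, and Il4 in 57.5% and 68.8%. In both cKO libraries Foxp3 was thus more frequent with the receptor genes and Il4 more frequent with Areg alone. The control cells were few, at 13 and 12 with a receptor gene and 34 and 26 with Areg alone, with Foxp3 in 53.8% and 58.3% of the former and in 29.4% and 46.2% of the latter.

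Follicular helper genes followed Il4. At least 2 of the 4 genes Cxcr5, Bcl6, Pdcd1 (the receptor PD-1) and Il21 were detected in 62.7% and 61.0% of cKO cells marked by Areg alone and in 12.6% and 14.4% of those with Il1rl1 or Klrg1. Among marked cKO cells with Il4 and no Foxp3, 72.7% and 75.7% had at least 2 of these genes, against 11.1% and 11.6% of cells with Foxp3 and no Il4. Pdcd1 was found in 85.2% and 87.2% of the former and in 27.2% and 28.0% of the latter. Bcl6, the lineage factor of follicular helper cells, was found in 68.2% and 66.8% of the cells with Il4 and no Foxp3, and Cxcr5, the receptor that leads cells into follicles, in 43.2% and 53.6%. B cells had Pdcd1 in 0.09% to 0.874%.

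The Th2 genes were less clear cut. Of 9 listed genes other than Il4, 4 were higher in marked cKO cells with Foxp3 and no Il4 than in those with Il4 and no Foxp3 in both libraries, only Il13 was lower in both, and 4 did neither. Gata3 was detected in 69.3% and 73.6% of cells with Il4 and no Foxp3 and in 86.4% and 78.0% of cells with Foxp3 and no Il4. Most cells of both classes thus had it, with the higher share in the Foxp3 class. Il1rl1 was found in 7.95% and 6.81% of the cells with Il4 and no Foxp3 and in 51.9% and 52.4% of the cells with Foxp3 and no Il4. Il13 was found in 6 and 13 marked cKO cells, 2.21% and 2.29%, and in no marked control cell, and Il5 in 1 and 0 cKO cells and in no control cell. Il13 in the cKO was counted at 31.1 and 11.6 CPM in the class with Il4 and no Foxp3 and at 0 in both libraries in the class with Foxp3 and no Il4.

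Levels summed over each class gave the same order. Pdcd1 was at 446 and 462 CPM in cKO cells with Il4 and no Foxp3 and at 83.2 and 61.0 CPM in cells with Foxp3 and no Il4. Bcl6 stood at 237 and 215 against 34.4 and 24.9 CPM, and Il21, the follicular helper cytokine, at 35.3 and 56.9 against 1.81 and 0 CPM. Tcf7, a factor of naive and follicular helper cells, was at 516 and 647 against 150 and 100 CPM. All 15 genes of the follicular helper list were higher in the cells with Il4 and no Foxp3 than in those with Foxp3 and no Il4 in both libraries. The share over all genes was not computed for this count or for that of the Th2 list, so neither has a background. The unmarked cKO cells with Il4 had Pdcd1 at 469 and 411, Bcl6 at 275 and 177, Il21 at 14.9 and 36.1 and Tcf7 at 569 and 578 CPM.

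Most listed genes of effector regulatory cells ran the other way. Of 18 listed genes, 14 were higher in cKO cells with Foxp3 and no Il4 than in those with Il4 and no Foxp3 in both libraries, 2 were lower in both (Batf and Tigit) and 2 differed between libraries (Fgl2 and Nfil3). For this count too, the share over all genes was not computed. Itgae, the integrin chain CD103 that binds epithelial cadherin, was at 165 and 202 CPM in marked cKO cells with Foxp3 and no Il4 and at 16.9 and 4.66 CPM in those with Il4 and no Foxp3. Prdm1, which encodes the effector factor Blimp-1, was at 63.3 and 82.2 against 7.06 and 2.33 CPM, and Il10, the suppressive cytokine, at 57.9 and 55.0 against 0 and 2.80 CPM. Il2ra was at 68.8 and 161 against 5.65 and 2.33 CPM. The unmarked Foxp3-positive cKO cells had Itgae at 55.1 and 110, Prdm1 at 38.8 and 35.8, Il10 at 12.3 and 21.5 and Il2ra at 257 and 136 CPM. Areg itself ranged from 351 to 566 CPM over the classes, while Il1rl1 ran from 250 and 228 CPM with Foxp3 alone through 112 and 101 with both genes to 15.5 and 18.6 with Il4 alone. These levels describe classes cut from the same cells and carry no test.

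**Figure D3:**
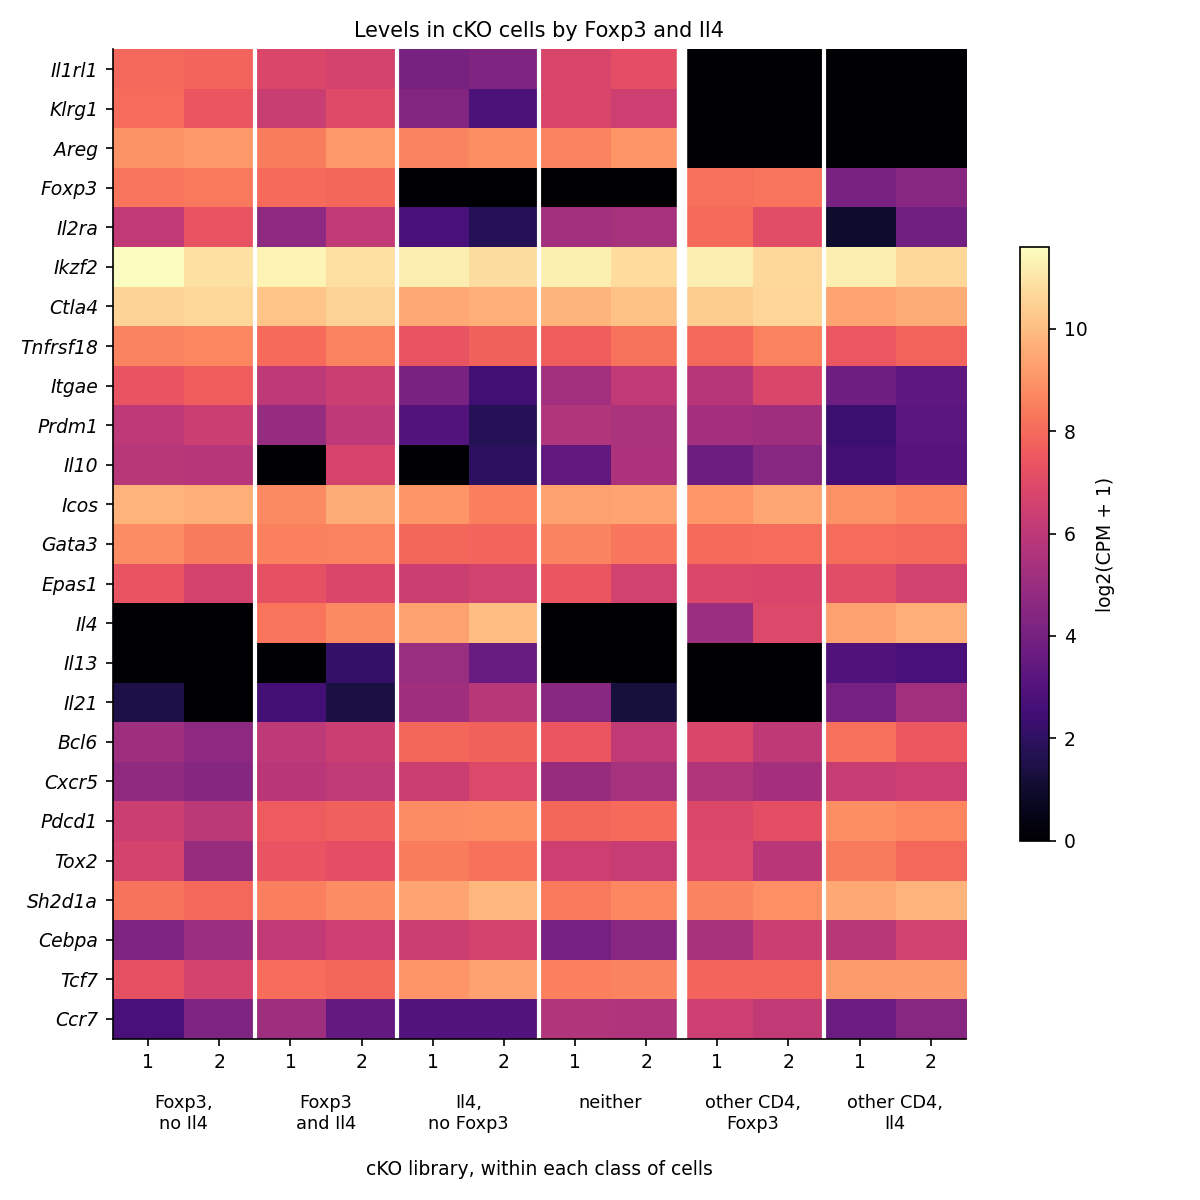
Levels in the 2 cKO libraries as log2(CPM + 1), with UMIs summed over the cells of each class, in columns by class and library and with genes as rows. Marked cells come first, in the classes Foxp3 without Il4, both, Il4 without Foxp3 and neither, and unmarked cells with Foxp3 or with Il4 follow, in which Il1rl1, Klrg1 and Areg are 0 by the rule. Il1rl1, Klrg1, Itgae, Prdm1 and Il2ra are brightest in the Foxp3 classes, and Pdcd1, Bcl6, Il21 and Tox2 in the Il4 classes.

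The marked class held a larger share of the Foxp3-positive CD4 cells in the cKO. It held 17 of 76 and 19 of 66 Foxp3-positive cells in the controls, or 22.4% and 28.8%, and 102 of 164 and 226 of 310 in the cKO, or 62.2% and 72.9%. Of the Il4-positive CD4 cells it held 0 of 18 and 0 of 23 in the controls and 109 of 258 and 297 of 587 in the cKO, or 42.2% and 50.6%. Among Foxp3-positive marked cells, Il1rl1 was found in 11.8% and 10.5% in the controls and in 47.1% and 46.5% in the cKO, and Klrg1 in 41.2% and 36.8% against 40.2% and 42.5%.

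Marked cells were then compared between genotypes by summing UMIs per library and testing the sums with edgeR's quasi-likelihood test. Of 8969 genes tested, 65 were called at an adjusted p under 0.05 (0.725%), 26 higher (0.29%) and 39 lower (0.435%) in the cKO. With the batch as a block, 230 genes were called, and the control sums rested on 47 and 38 cells. Beside the cytokine Il4, the genes that rose included Epas1, which encodes the hypoxia factor HIF-2α, and Vdr, the vitamin D receptor. The genes that fell were led by Igfbp4 and Cxcr3, a chemokine receptor of Th1 cells, with the Th1 genes Tbx21 and Ifng and the cytotoxic genes Nkg7 and Ccl5.

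Il4 was counted at 0 CPM in both controls and at 262 and 541 CPM in the cKO. Set against the 3 counts that 0 UMIs over the control group allow, with UMIs taken as independent, it was at least 92.0-fold higher (edgeR adjusted p = 0.00073). UMIs of 1 cell are not independent, and the 0 rests on 47 and 38 control cells, so the bound is higher than the cells warrant. That bound rests on the UMIs of both groups, and it was 53.9 without cKO library 2, 108 without cKO library 1, 34.9 without control library 1 and 57.1 without control library 2. Dnase1l3, a secreted DNase, was at 7.93 and 4.32 CPM against 158 and 254 CPM, a log2 change of 4.77 (SE 0.54, adjusted p = 0.00106). Epas1 was at 7.93 and 4.32 against 132 and 100 CPM, a log2 change of 3.94 (SE 0.52, adjusted p = 0.00282). In each of these genes both cKO libraries stood above both controls, as they did in all genes named here as higher. The groups did not overlap, in either direction, in 37.5% of all tested genes. Genes named by p also had to run the same way in both batches, so this agreement was partly required. Nav2, a microtubule-associated protein, rose from 164 and 212 to 1161 and 886 CPM, a log2 change of 2.45 (SE 0.34, adjusted p = 0.00502), and its UMIs were spread over 225 and 476 marked cKO cells.

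Vdr rested on 2 control UMIs and was 34.8-fold higher in the cKO with a counting interval of 9.61 to 288 (5.28 and 0 against 79.1 and 131 CPM, adjusted p = 0.00534). Slc7a10, an amino acid transporter, rested on 1 control UMI and was 46.4-fold higher with an interval of 8.30 to 1837 (0 and 4.32 against 49.4 and 88.7 CPM, adjusted p = 0.0134), a call lost under the stricter gate described below (adjusted p = 0.0931). Cdca3, a cell division gene, had no control UMI and was at least 6.85-fold higher, or at least 2.60-fold without control library 1 and 4.25-fold without control library 2 (25.7 and 37.6 CPM in the cKO, adjusted p = 0.0272), and was not called by DESeq2, without TMM or with at least 2 UMIs of the 3 genes. Low control counts thus limited how closely these changes were known. These intervals and bounds also treat UMIs as independent, though several can come from 1 cell, so they are too narrow. Tshz2, a zinc finger gene, rose from 81.9 and 95.1 to 283 and 327 CPM, a log2 change of 1.79 (adjusted p = 0.0252) that was lost without cKO library 2, with at least 2 UMIs of the 3 genes and under a stricter gate without cells of other lineages' genes (adjusted p up to 0.237), and the unnamed gene Gm43057 rose from 2.64 and 13.0 to 69.2 and 107 CPM (log2 change 3.53, adjusted p = 0.0134), a call lost with at least 2 UMIs (adjusted p = 0.2). Sostdc1, a secreted antagonist of BMP and Wnt signalling, was at 135 and 34.6 against 529 and 840 CPM, a log2 change of 2.94 (adjusted p = 0.0156). Its control UMIs came from 4 cells and 1 cell, and the call was lost with the batch as a block (adjusted p = 0.377) and under the stricter gate (adjusted p = 0.737).

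Among the genes that fell, Igfbp4, which binds insulin-like growth factors, went from 111 and 104 to 7.91 and 4.28 CPM, a log2 change of -4.01 (adjusted p = 0.000484), with its control UMIs in 5 and 4 cells. Cxcr3 went from 145 and 173 to 17.8 and 6.84 CPM, a log2 change of -3.65 (adjusted p = 0.00106), and was seen in 23 of 47 and 15 of 38 control cells but in 16 of 272 and 17 of 568 cKO cells. Both cKO libraries lay below both controls in these and in the other genes named as lower, beside groups that did not overlap in 37.5% of all tested genes. Airn, a noncoding RNA (-2.69), Sytl3, which binds Rab27 (-2.95), Actn1, an actin crosslinker (-2.84), Tgfbr3, a TGF-β coreceptor (-2.55) and Hip1, an endocytic adaptor (-2.25), fell as well, with adjusted p from 0.00259 for Airn to 0.0104 for Hip1. With at least 2 UMIs of the 3 genes, Actn1, Tgfbr3 and Hip1 lost their calls, Tgfbr3 and Hip1 also under the stricter gate and Hip1 also without cKO library 2 (adjusted p up to 0.362). Ccr6, a chemokine receptor of Th17 and some regulatory cells, fell by 3.01 on the log2 scale (adjusted p = 0.00639), and this call was lost without control library 1 (adjusted p = 0.068) and under the stricter gate (adjusted p = 0.171).

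Frmd5 (log2 change -3.52, adjusted p = 0.00106) rested on 5 and 2 control cells and was not called under the stricter gate (adjusted p = 0.15). Nkg7, a granule protein of cytotoxic cells, fell from 74.0 and 160 to 12.9 and 19.7 CPM (log2 change -2.69, adjusted p = 0.00708), on 7 and 7 control cells, and under the stricter gate its log2 change was -0.91 (adjusted p = 0.958). The summed level of the natural killer marker list moved with it, at 214 and 130 CPM in marked control cells against 8.53 and 20.4 in marked cKO cells, where unmarked CD4 cells had 33.4, 23.2, 13.8 and 23.2 CPM. Its part in the fall of Nkg7, Ifng and Ccl5 was not tested beyond the stricter gate, which leaves out cells with a UMI of Klrb1c or Ncr1.

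**Figure D4:**
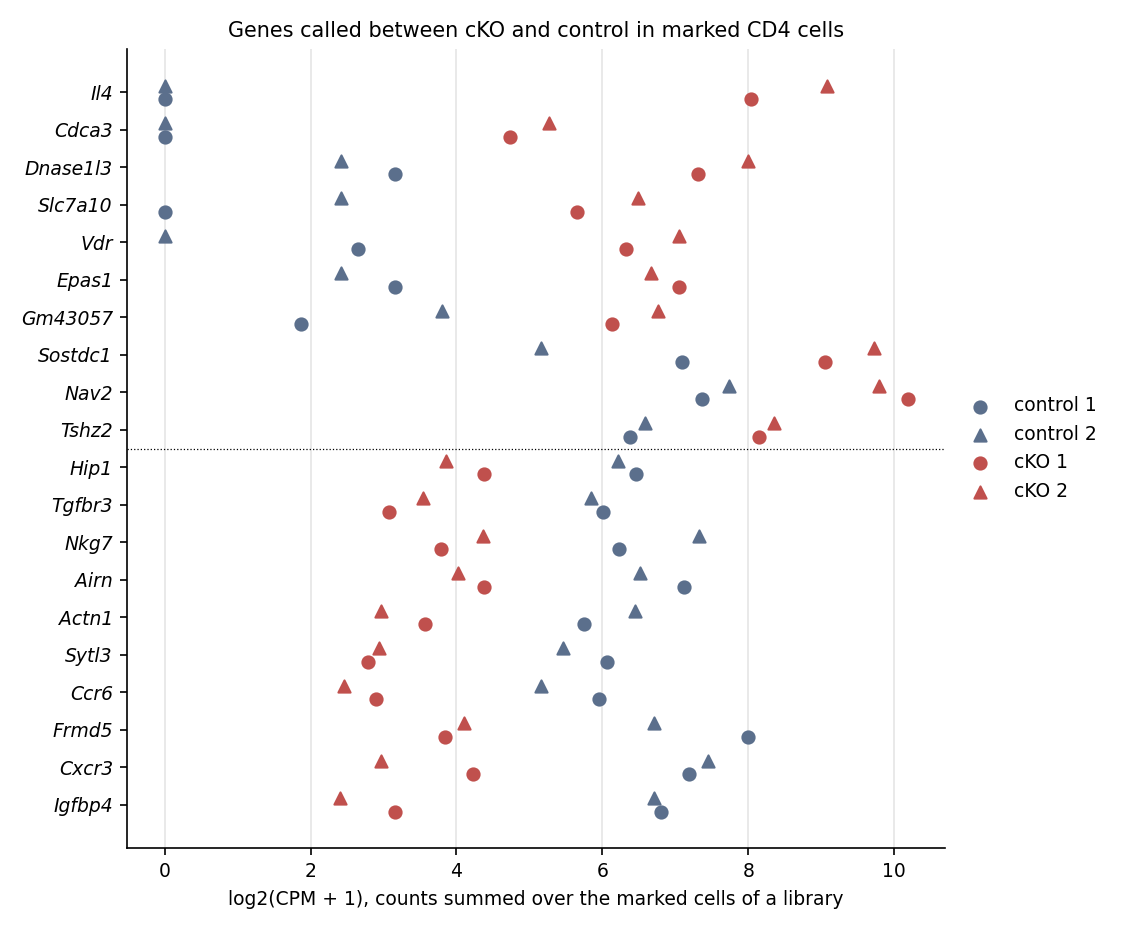
The 10 higher and 10 lower genes with the smallest p between cKO and control in marked CD4 cells, as log2(CPM + 1) of UMIs summed over the marked cells of a library. Each point is 1 library, and genes above the dotted line were higher in the cKO. The cKO and control libraries do not overlap in these 20 genes, nor in 37.5% of all tested genes. The 20 genes were chosen by p among called genes with the same direction in both batches.

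Grouped by lists, the regulatory genes gave no call in the main edgeR fit. Of 11 tested core regulatory genes, 0 were called by edgeR, 2 had an unadjusted p under 0.05, as 8.55% of all tested genes did, both lower (Il2ra and the receptor gene Gpr83), and DESeq2 called Il2ra alone, with a median log2 change of 0.01 beside 0.00 over all tested genes. Foxp3 was at 114 and 199 CPM in the controls and 111 and 123 in the cKO (log2 change -0.38, adjusted p = 0.85), and Ikzf2, which encodes the factor Helios, at 2246 and 1849 against 2586 and 1846 CPM. Il2ra was at 201 and 112 against 33.1 and 61.6 CPM (log2 change -1.71, SE 0.38, adjusted p = 0.0654), so the groups did not overlap, as in 37.5% of all tested genes, and it was called in 7 of 11 alternative analyses. Ctla4, the inhibitory receptor of regulatory and activated T cells, was at 1440 and 1996 against 1016 and 1181 CPM (adjusted p = 0.605). Of 18 effector regulatory genes, 0 were called by edgeR or DESeq2 and 5 had an unadjusted p under 0.05, 3 of them higher (Itgae, Nfil3 and Batf) and 2 lower (Fgl2 and Entpd1), with a median of 0.01. Itgae was at 29.1 and 13.0 against 67.2 and 80.4 CPM (log2 change 1.67, adjusted p = 0.108) and passed with the batch as a block (adjusted p = 0.0213).

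Of 10 listed Th2 genes, 5 passed the filter on low counts, of which Il4 and Epas1 rose and none fell (median log2 change 2.45). Il4 had no control UMI and Epas1 had 3 and 1, so both passed the filter through their cKO counts, and the direction of the list is partly set by the filter. In both cKO libraries, Epas1 was among the 4 listed Th2 genes higher with Foxp3 and no Il4 than with Il4 and no Foxp3. In Foxp3-positive marked cells it was at 6.79 and 8.78 CPM in the controls and at 157 and 101 CPM in the cKO. Gata3 was at 230 and 207 CPM in the controls and 345 and 298 in the cKO, a log2 change of 0.55 that did not pass (adjusted p = 0.683), and it was detected in 58.7% of marked control cells and 78.0% of marked cKO cells on average. Of 15 follicular helper genes, 1 was called (median 0.53), the transcription factor Cebpa at 2.64 and 13.0 against 44.5 and 69.3 CPM (adjusted p = 0.039). Cebpa was called in 5 of 11 alternatives and not by DESeq2, which called 0 of the list (adjusted p for Cebpa = 0.0942), and 4 of the 15 had an unadjusted p under 0.05. Pdcd1 was at 169 and 90.7 against 260 and 293 CPM (log2 change 1.05, adjusted p = 0.29) and passed with the batch as a block (adjusted p = 0.0241). Bcl6, at 114 and 90.7 against 143 and 126 CPM, and Cxcr5, at 50.2 and 38.9 against 50.4 and 75.3 CPM, were not called.

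Of 5 tested Th1 genes, 3 fell, Cxcr3, Tbx21 and Ifng, and none rose (median log2 change -3.21). Tbx21, the Th1 lineage factor T-bet, was at 44.9 and 21.6 CPM against 1.48 and 3.63 CPM (log2 change -3.21, adjusted p = 0.0187), and Ifng at 29.1 and 99.4 against 2.47 and 5.77 CPM (log2 change -3.51, adjusted p = 0.0134), a call lost under the stricter gate (adjusted p = 0.618). At least 2 Th1 genes were found in 57.4% and 36.8% of marked control cells and in 8.46% and 9.33% of marked cKO cells. Of 9 tested cytotoxic genes, 2 fell, Nkg7 and the chemokine Ccl5, the latter from 235 and 938 to 35.6 and 38.5 CPM (log2 change -3.93, adjusted p = 0.0104), and Ccl5 was not called with the batch as a block (adjusted p = 0.166) or without the cells with Xist (adjusted p = 0.0616). Of 10 naive genes 1 fell, Igfbp4 (median -0.69).

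**Figure D5:**
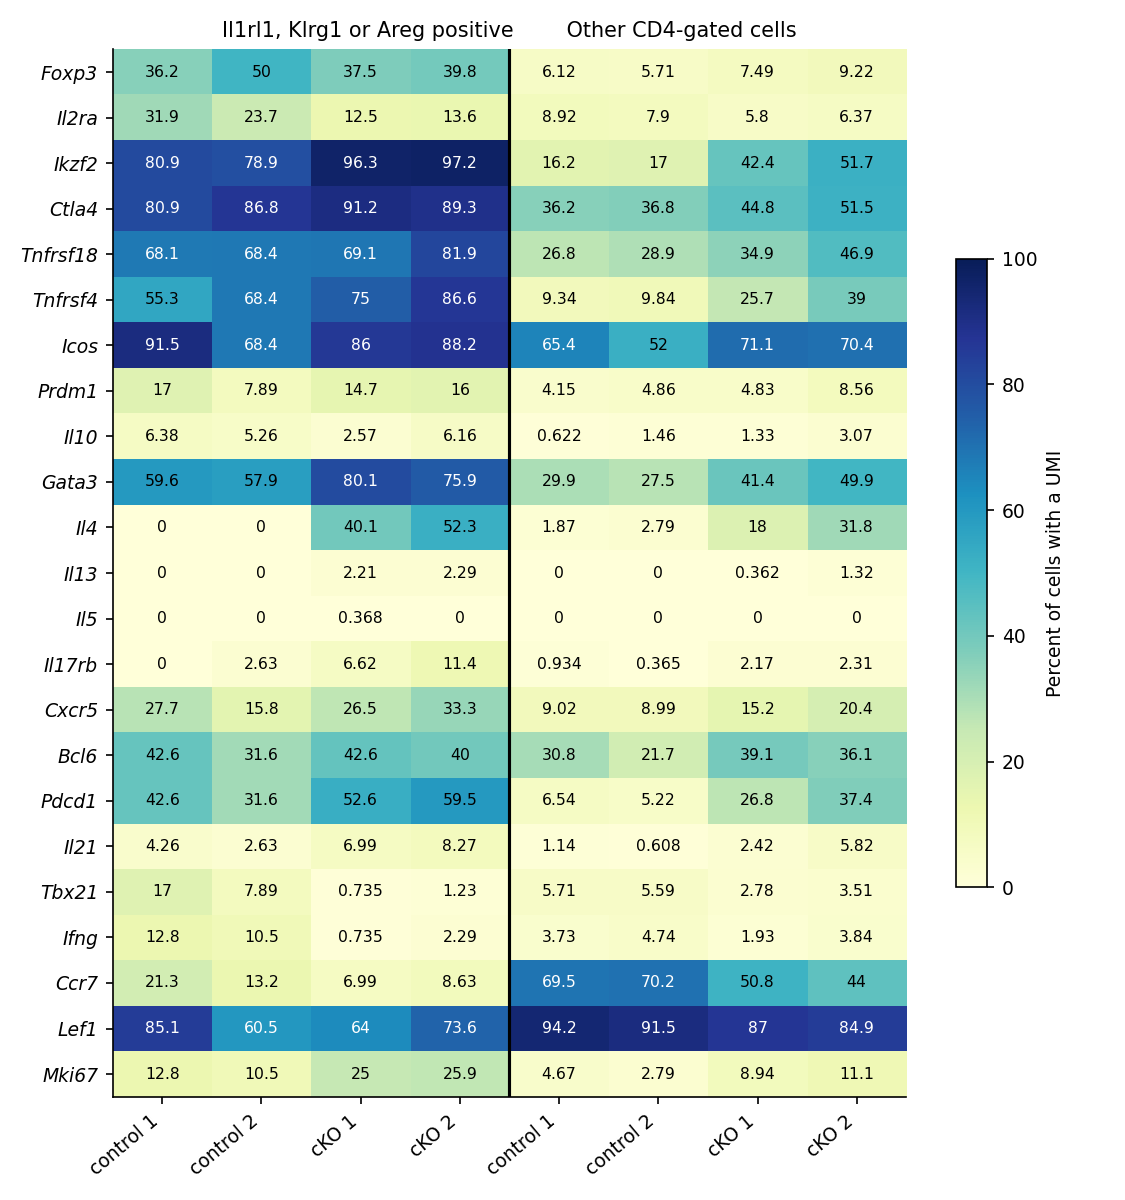
Percent of cells with a UMI of each gene, printed in each field, for the marked CD4 cells (left 4 columns) and the other, unmarked CD4 cells (right 4 columns) of each total library. Il4 runs from 0 in both marked control columns to 40.1% and 52.3% in the marked cKO columns, and Tbx21 and Ifng run the other way.

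Marked cells were next compared with unmarked CD4 cells of the same libraries, with the library as a block. Of 12039 genes tested, 1974 were called (16.4%), 950 higher (7.89%) and 1024 lower (8.51%) in marked cells. Of 11 core regulatory genes 6 were higher (median log2 difference 1.30, beside -0.02 over all tested genes), of 18 effector regulatory genes 10 were higher (median 1.54), of 8 tested Th2 genes 6 (1.37), and of 15 follicular helper genes 7 (0.80), with none lower in these lists. DESeq2 called 10, 15, 2 and 11 genes of these lists in the same order. Of 10 naive genes 9 were lower (median -1.62). Immediate early genes, which activation or the handling of cells can raise, moved with these lists: 7 of 13 were higher, 1 was lower (Dusp2) and DESeq2 called 9 (median 0.54), and their part in the differences was not tested. The lists' counts, unlike the 3 genes of the rule, were not fixed by the gate, but a cell with more UMIs is likelier to enter it.

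Foxp3 was at 105, 181, 107 and 118 CPM in marked cells of control libraries 1 and 2 and cKO libraries 1 and 2, and at 20.8, 20.3, 24.3 and 32.6 CPM in unmarked cells (log2 difference 2.28, adjusted p = 2.92e-07). Gata3 was at 212, 189, 333 and 286 against 67.1, 69.9, 137 and 166 CPM (1.24, adjusted p = 1.62e-06). Itgae was at 26.8, 11.8, 64.9 and 77.2 against 3.72, 1.69, 13.4 and 15.8 CPM (2.29). All 4 libraries had the marked cells above the unmarked ones in these genes. For Itgae the naming rule required this, and the share over all tested genes was not computed. The smallest p among the genes that were higher belonged to Nfkbia, the inhibitor of NF-κB, at 685, 1397, 819 and 1120 against 261, 385, 318 and 430 CPM (1.49, adjusted p = 1.67e-11), with the stress gene Gadd45b (1.66) and the kinase Pim1 (1.29) beside it. The lower genes included Foxp1, a factor of T cell quiescence (-1.55), the adaptor Grap2 (-2.07), and of the naive list the lymph node homing receptor Ccr7 (-3.15). Without the library block edgeR did not call Foxp1, Grap2 or Itgae (adjusted p = 0.12, 0.0737 and 0.0731). Ikzf2 (2.23, adjusted p = 0.138), Il2ra (1.30, adjusted p = 0.171) and Pdcd1 (1.58, adjusted p = 0.263) did not pass by edgeR, while DESeq2 called all 3 (adjusted p = 0.00111, 0.000995 and 0.0217).

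Of these, Ikzf2 and Pdcd1 differed between marked and unmarked cells by unequal amounts in the genotypes. A test of the interaction of genotype and mark called 362 of 12039 genes (3.01%), 104 with a positive interaction (0.864%) and 258 with a negative one (2.14%). The sign says whether the log2 change from control to cKO was higher or lower in marked than in unmarked cells, and not which change was larger in size. Ikzf2 was at 2073, 1689, 2495 and 1772 CPM in marked cells and at 244, 158, 914 and 909 CPM in unmarked cells (log2 interaction -2.03, adjusted p = 4.03e-63), so unmarked cells of the cKO were above those of the controls and marked cells overlapped. A p-value this small leans on variation pooled over genes, since few sums were fitted. Tnfrsf4, the costimulatory receptor OX40, was at 295, 572, 360 and 572 against 29.6, 40.9, 127 and 238 CPM (-2.18). By DESeq2, Pdcd1 had a log2 interaction of -1.94 (adjusted p = 3.84e-06), and Il2ra was not called (adjusted p = 0.548). Il4 had a positive interaction, at 0, 0, 253 and 520 CPM in marked and 5.21, 29.2, 113 and 293 CPM in unmarked cells (adjusted p = 1.23e-06). Its fitted value of 5.83 rests on 0 UMIs in the marked control cells and is no bound. It was called in 7 of 11 alternatives, with values from 2.52 to 6.90, and was lost without control library 2, under the stricter gate, at 2000 UMIs per cell and with the replicate block in place of the library (adjusted p up to 0.754). Of the lists, 7 of 11 core regulatory, 8 of 18 effector regulatory and 6 of 15 follicular helper genes had a negative interaction and none a positive one (medians -0.94, -0.85 and -0.51, beside 0.06 over all tested genes). DESeq2 called 4, 5 and 5 of them. The summed control cells were few, and with cells thinned to 2000 UMIs 10 genes were called.

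The last comparison set Foxp3-positive marked cells against Foxp3-positive unmarked CD4 cells, with the library as a block. Of 7173 genes tested, 77 were called (1.07%), 39 higher (0.544%) and 38 lower (0.53%) in the marked cells, and without the library block 0 were called by edgeR, with 256 at an unadjusted p under 0.05. Of 17 effector regulatory genes 2 were higher (median log2 difference 0.69), Il10 and Rora. DESeq2 called 3 of the 6 effector genes for which it gave an adjusted p, Rora among them, and gave none for Il10. Of 10 naive genes 3 were lower, Ccr7, Igfbp4 and Tcf7 (median -0.80), of which DESeq2 called Tcf7 and gave no adjusted p for the others. Of 13 immediate early genes 2 were higher (median 0.15), DESeq2 called 2, and their part in these differences was not tested. Of 11 core regulatory genes 1 was lower, Gpr83, at 0, 35.1, 2.62 and 3.11 against 40.1, 52.2, 50.6 and 14.5 CPM (-2.0, adjusted p = 0.023), and it was called in 5 of 9 alternatives. DESeq2 gave no adjusted p for Gpr83 and called Ikzf2 as higher (0.66, adjusted p = 0.0224), which edgeR did not call (adjusted p = 0.224). Il10 was at 136, 96.5, 41.9 and 70.1 CPM against 13.4, 76.3, 12.1 and 21.8 CPM (1.58, adjusted p = 0.0175), and Rora, a nuclear receptor of tissue regulatory and Th17 cells, differed by 0.92 (adjusted p = 0.011). Of the Th2 list Gata3 was higher, at 339, 290, 419 and 347 against 134, 96.4, 249 and 266 CPM (0.87, adjusted p = 0.0179). In all 4 libraries the marked cells were above the unmarked ones in Il10 and Gata3, and the share over all tested genes was not computed.

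Cxcl2, a neutrophil chemokine, was at 67.9, 105, 9.16 and 125 CPM in Foxp3-positive marked cells and at 0, 0, 0 and 2.90 CPM in unmarked ones (adjusted p = 8.23e-07). Nfkbia was at 1134, 1799, 1163 and 1549 against 404, 530, 626 and 923 CPM (1.19), and Gadd45b (1.19), Zfp36, an mRNA decay factor (0.94), and Pim1 (0.76) were also higher. Ccr7 was at 0, 17.6, 13.1 and 15.6 against 192, 269, 87.1 and 71.1 CPM (-2.63, adjusted p = 0.000124), and Foxp1 (-1.24), Bach2, a repressor of effector genes (-1.22), and Bcl2, a survival factor (-1.49), were lower as well. Foxp3, by which both sides were chosen, had a log2 difference of 0.00, and Il2ra (-0.77, adjusted p = 0.789) was not called. The control sums held 17 and 19 marked cells, and the counts moved with the library left out, from 21 without cKO library 1 to 124 without cKO library 2.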

How the data were processed

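Single-cell 3′ RNA was counted in 8 spleen libraries, of which the 4 total libraries were used for all comparisons. The authors deposited UMI counts per gene (32285 genes) and barcode, unnormalised. The submitters' processing notes name GRCm38 and mm10, with the aligner not given in the sources used here. Cells were gated as stated in the report, and no doublet caller was run; doublets were treated by the gate on B cell genes and by a stricter gate (no UMI of Cd79a, Ms4a1, Cd79b, Lyz2, Csf1r, Klrb1c, Ncr1 or a further gene not reported here, and the top 2% of cells by UMIs left out). The members and gene lists were chosen with earlier results of these data known. UMIs were summed per library and class, filtered on low counts and fitted in edgeR 4.0.16 (TMM, quasi-likelihood, prior count 2, Benjamini-Hochberg adjustment) in R 4.3.3, with DESeq2 1.42.0 as an alternative. CPM values are scaled within each fit, so they differ slightly between comparisons, and class and B cell CPM are plain. The 10 called genes with the smallest p in each direction were named, with genes of the regulatory, Th2, follicular helper, Th1, cytotoxic and naive lists. Outside the interaction, those chosen by p also had to run the same way in both batches, or in all 4 libraries for marked against unmarked cells. Agreement of the libraries among them was thus partly required. The figures, the class levels and the genes singled out beside them were chosen after values were seen. Replicate numbers are the labels' batches; deviations from the group means correlated by 0.27 over 8969 genes. In simulated sums for marked cKO against control cells (8668 genes), changes were set only in genes above a minimum mean level. Of these, 23% of genes changed by a log2 of 1 and 98% of those changed by a log2 of 2 were recovered. Recovery of genes at lower levels was not simulated. Libraries are pools, so p-values between genotypes within marked cells measure the spread between pools. The interaction and the comparisons of marked with unmarked cells had the library as a block, which takes out the level of each pool. Their p-values rest on how far differences within libraries varied, not on the full spread between pools. With few sums per fit, edgeR takes that variation largely from all genes together. Very small p-values are therefore no measure of a gene's own spread over the 4 libraries. Without that block, called genes fell from 1974 to 412 for marked against unmarked cells and from 77 to 0 among Foxp3-positive ones. YFP-sorted libraries entered no test. Genotypes were not compared within Foxp3-positive or Foxp3-negative marked cells, since a minimum of 20 cells per sum was set for these and the controls had 17 and 19, and 30 and 19.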

Additional observations from a re-analysis of the deposited data

Results flagged for a closer look

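The genotype effect differed between marked and unmarked CD4 cells in 362 genes by edgeR's test of the interaction. The log2 change from control to cKO was higher in marked than in unmarked cells, whichever change was larger, in Il4 (log2 interaction 5.83, fitted on 0 UMIs in marked control cells), in the cell cycle and chromatin genes Hist1h2ae (2.89), Stmn1 (2.05), Pclaf (1.87) and Tubb5 (0.86), and in St8sia6 (1.98), Atp1b3 (0.89), Emb (0.87), Crip1 (0.71) and Arhgap15 (0.58). Under the stricter gate Pclaf passed in the opposite direction (-3.20, adjusted p = 0.0014), and Stmn1 (-0.91) and Hist1h2ae (-1.38) turned sign without passing. The log2 change was lower in marked cells in Cxcr3 (-3.37), Gzma (-3.16), Igfbp4 (-2.59), Ttn (-2.37), Cd83 (-2.24), Tnfrsf4 (-2.18), Ikzf2 (-2.03), Tnfrsf9 (-1.65), Tbc1d4 (-1.33) and AW112010 (-1.20). In unmarked cells, where the genotypes were not tested alone, Cxcr3 was at 33.9 and 46.0 CPM in the controls and 31.1 and 29.0 CPM in the cKO, and Igfbp4 at 350 and 365 against 155 and 107 CPM. Gzma turned sign under the stricter gate (0.30) and at 2000 UMIs per cell (2.51), and AW112010 at 2000 UMIs (0.18). With the replicate block in place of the library, Il4, Stmn1, Pclaf, Hist1h2ae, Crip1, Ttn, Gzma and Tbc1d4 lost their calls. At 2000 UMIs per cell, calls were lost for Il4, Stmn1, St8sia6, Arhgap15, Tubb5, Crip1, Cxcr3, Gzma, Igfbp4, Cd83, Tnfrsf4, Tnfrsf9, Tbc1d4 and AW112010. Stmn1, Pclaf, Hist1h2ae, St8sia6 and Tubb5 lost them without control library 1, Il4, Ttn and Crip1 without control library 2, Crip1 without cKO library 1, and Arhgap15, Atp1b3 and Tubb5 without cKO library 2. Tubb5 and Crip1 were each called in 5 of 11, and Ikzf2 and Emb were called in all 11. The marked control sums rest on 47 and 38 cells.

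CD4-gated cells were also present in the YFP-sorted libraries, which entered no comparison. Marked cells were 28 of 145 CD4-gated cells (19.3%) in cKO library 1 and 5 of 17 (29.4%) in cKO library 2. The control YFP-sorted libraries had 2 of 111 (1.80%) and 0 of 15, which allows up to 20%.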

How the results depend on the processing

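The difference in marked cells among CD4 cells, in percentage points of cKO over control, was 27.0, against 19.1 at 2000 UMIs per cell and 20.2 to 33.9 with a library left out. For Foxp3 it was -4.44, against -24.3 at 2000 UMIs and -11.4 to 2.47 with a library left out. For Foxp3 with Il2ra it was -9.65, against -0.885 at 2000 UMIs, -14.9 with at least 2 UMIs of the 3 genes and -11.4 to -7.87 with a library left out. For Il4 it was 46.2, against 29.1 at 2000 UMIs and 40.1 to 52.3 with a library left out, 52.3 without cKO library 1 and 40.1 without cKO library 2. Without the cells that had Xist, these differences were 24.5, -3.36, -10.1 and 48.2 in the same order. In cKO library 1 marked cells were then 19.7% of CD4 cells, and Il4 was in 11.9% of its unmarked cells. Within that library, 29.2% of CD4 cells with Xist alone and 20.6% of those with Y-linked UMIs alone were marked.

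Genes called between genotypes in marked cells numbered 65. They were 28 with library totals in place of TMM, 208 with no filter, 29 with at least 2 UMIs, 20 under the stricter gate, 230 with the replicate block, and 41 to 257 with a library left out (without cKO library 1 100, without cKO library 2 41, without control library 1 120, without control library 2 257). Leaving out the cells with Xist, an alternative chosen after seeing the data, gave 76. Alternatives that gave a gene no adjusted p were left out of the next counts. Of the 20 named genes of each comparison, 9 were called in every remaining alternative here (Sytl3 in 9, the others in 11), 13 between marked and unmarked cells, 2 for the interaction and 1 among Foxp3-positive cells (Cxcl2, which was not in the fits at 2000 UMIs or without the library block and had no adjusted p from DESeq2). In the same order, 20, 20, 15 and 20 kept their sign. Among marked against unmarked cells (1974), the counts were 276 at 2000 UMIs, 412 with no library block and 1255 to 2281 with a library left out (without cKO library 1 1255, without cKO library 2 1291).

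Among interaction genes (362) the counts were 110 by DESeq2, 229 with at least 2 UMIs, 207 under the stricter gate, 10 at 2000 UMIs, 95 with the replicate block in place of the library, and 92 to 214 with a library left out (without cKO library 1 153, without cKO library 2 92, without control library 1 179, without control library 2 214). The stricter gate turned the sign of Stmn1 (-0.91), Pclaf (-3.20, adjusted p = 0.0014), Hist1h2ae (-1.38) and Gzma (0.30), and thinning to 2000 UMIs turned Gzma (2.51) and AW112010 (0.18). Among Foxp3-positive cells (77) the counts were 46 by DESeq2, 168 with no filter, 38 under the stricter gate, 3 at 2000 UMIs, 0 with no library block (256 at an unadjusted p under 0.05) and 21 to 124 with a library left out (without control library 1 51, without control library 2 29). The cause of these changes was not tested, beyond the fewer cells or genes that thinning, gates and filters leave by construction. The fits within Foxp3-positive and Foxp3-negative marked cells, with their alternatives, were not run because control sums held under 20 cells.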

Other observations

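Several lists gave no call between genotypes in marked cells. Of 10 tested cell cycle genes, 0 were called by edgeR or DESeq2, 9 had an unadjusted p under 0.05, all of them higher, as had 8.55% of all tested genes in either direction, and the median log2 change was 1.59 beside 0.00 over all tested genes. Mki67, a marker of cycling cells, was detected in 12.8% and 10.5% of marked control cells and in 25.0% and 25.9% of marked cKO cells. Of 3 tested natural killer genes, 0 were called by edgeR or DESeq2 and 3 had an unadjusted p under 0.05, all lower (median -2.66). Of 7 interferon-stimulated genes, 0 were called by edgeR or DESeq2 and 1 had an unadjusted p under 0.05 (median 0.43). Of 13 immediate early genes, 0 were called by either tool and 2 had an unadjusted p under 0.05 (median -0.03), and of 13 eIF3 subunit genes, 0 were called by either tool and 0 had an unadjusted p under 0.05 (median 0.15).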
